A study of Mus musculus with 54 samples.

Results

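The lipid droplet protein genes described here are Cidea, Cideb and Cidec of the CIDE family, Plin2, Plin3, Plin4 and Plin5 of the perilipin family, and G0s2. They were taken by gene symbol from the deposited RNA-seq table of mouse liver, which held all 8 of them among 13815 genes in 15 libraries. The genes were not chosen by their values in a single comparison, but results of these libraries were known when the set was drawn up. RNA-seq covered 5 groups of 3 libraries. Flcn lox/lox mice received an AAV8 vector with the hepatocyte promoter TBG driving GFP (Control) or Cre (LiFKO, in which hepatocytes lose Flcn), each at 1.5e11 genome copies. Flcn lox/lox; Tfe3 -/Y mice, which lack Tfe3 in the whole body, received the Cre vector at the same dose and were labelled DKO. About a week after the virus, Control and LiFKO mice began 17 to 18.5 weeks of normal chow or of the AMLN diet, which is used to model steatohepatitis, and all mice were fasted for 4 to 6 h before livers were taken. DKO libraries were analysed on the AMLN diet only, and no RNA-seq group lacked Tfe3 alone. All groups carried the floxed Flcn alleles and an AAV8 vector. TBG acts in hepatocytes, so the other cells of the liver kept Flcn.

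TFE3 ChIP-seq was given as lists of peaks pooled over libraries: 4 ChIP libraries each from chow-fed Control and LiFKO liver, and 3 each from Control and LiFKO liver after 9 days on the FPC diet. The FPC livers were taken without (Control, LiFKO) or with (Control+1c, LiFKO+1c) a second AAV8 vector, in which a liver-specific ApoE/AAT promoter drives HA-tagged nuclear SREBP-1c, at 1.0e11 genome copies. The GFP or Cre vector was given at 2.5e11 copies without it and at 1.5e11 copies with it. Anti-HA lists came from the Control+1c and LiFKO+1c livers. Genes and peaks are placed on mm9.

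Neutral lipid is stored in cells as droplets, a core of triglyceride and cholesteryl ester under a single phospholipid layer that carries proteins. Perilipins coat the droplet and govern access of lipases to it. CIDE proteins gather where droplets touch and let lipid pass from the smaller to the larger, and in hepatocytes CIDEB also takes part in loading lipid onto very low density lipoprotein. G0S2 inhibits ATGL, the product of Pnpla2 and the first lipase of triglyceride breakdown. Folliculin, the product of Flcn, is needed for mTORC1 to keep TFE3 in the cytoplasm, and TFE3 is a transcription factor of lysosomal and metabolic genes that binds E-box motifs.

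The RNA-seq values are the authors' log2 values, quantile normalized, with an offset that is not given in the sources used here. They hold no counts, so depth is unknown, and levels were compared between libraries for the same gene; a gene's place among the others is given for Cidea alone, to show how near it lay to the lowest values. Flcn was lower in LiFKO than in Control libraries on chow (log2 fold change -1.03, SE 0.17, limma adjusted p = 0.000394) and on AMLN diet (-0.57, SE 0.17, limma adjusted p = 0.0257). Its mean was 9.49 ± 0.40 (SD, n = 3) in the libraries labelled DKO and 10.42 ± 0.16 in AMLN LiFKO. That difference was called (-0.92, SE 0.17, limma adjusted p = 0.00242), so DKO and LiFKO libraries also differed in Flcn level. Tfe3 was 9.99 ± 0.18 (SD, n = 3) in the libraries labelled DKO, against 10.24 ± 0.05 in AMLN Control, and differed from AMLN LiFKO by -0.01 (SE 0.12), so its gene-level value did not mark the deletion, and whether it covers the deleted part is not known here. Replicates correlated at 0.971 to 0.988 across genes. The labels do not say that each library was a separate mouse, so p-values measure the spread between these libraries. AMLN Control replicate 3 lay below its group mean for each of the 8 genes. All 10 hepatocyte markers were measured, and the log2 of their summed level was 22.186 to 22.294 in Control libraries of both diets, 21.445 to 21.856 in LiFKO libraries and 22.192 to 22.218 in those labelled DKO. This sum weights abundant markers most. Quantile normalization gives each library the same highest value, and Alb, which encodes albumin, had equal means in chow Control, AMLN Control and DKO libraries. The near-equal sums of these groups thus do not show equal hepatocyte content. Alb was called lower in LiFKO on chow (limma adjusted p = 0.0170) and had a LiFKO effect of -0.82 (SE 0.28) on AMLN diet, which was not called. The median over the 10 markers was -0.16 and -0.13. On chow 1 was called higher (Apob, 0.52, SE 0.16) and 3 lower, and on AMLN diet limma called none. When each library was shifted to a common median of 12 housekeeping genes, the median of all genes moved by -0.18 (LiFKO against Control on chow), -0.31 (AMLN against chow in Control), 0.22 (LiFKO against Control on AMLN), -0.15 (DKO against LiFKO) and 0.40 (difference between diets). The share of called genes that were higher then went from 48.6% to 26.8%, from 49% to 11%, from 51.1% to 80.9%, from 45.8% to 19.8% and from 27.1% to 82.1%, so changes below are relative to the authors' scale.

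In Control liver the AMLN diet raised 7 of the 8 genes: the 3 CIDE genes, Plin2, Plin3, Plin4 and G0s2. Calls are limma tests at an adjusted p under 0.05 over all 13815 genes, and 22.8% of all genes were called in this comparison, 11.2% higher and 11.6% lower. None of the 8 fell. In 6 of the 8 the AMLN and chow Control libraries did not overlap, as in 40.9% of all genes. The median log2 fold change of the 8 was 1.41, and that of all genes was -0.04. In bulk liver, fewer cells of a type and less RNA per cell cannot be told apart. In LiFKO liver the same diet comparison called none of the 8 by limma, 1 at an unadjusted p under 0.05, with 3.74% of all genes called, 1.58% higher and 2.16% lower. Its groups did not overlap for 3 of the 8 (Plin3 and Plin4 higher, Plin5 lower), as in 24.9% of all genes. A test of the difference itself, described further on, called Cidea, Cidec and G0s2.

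**Figure D1:**
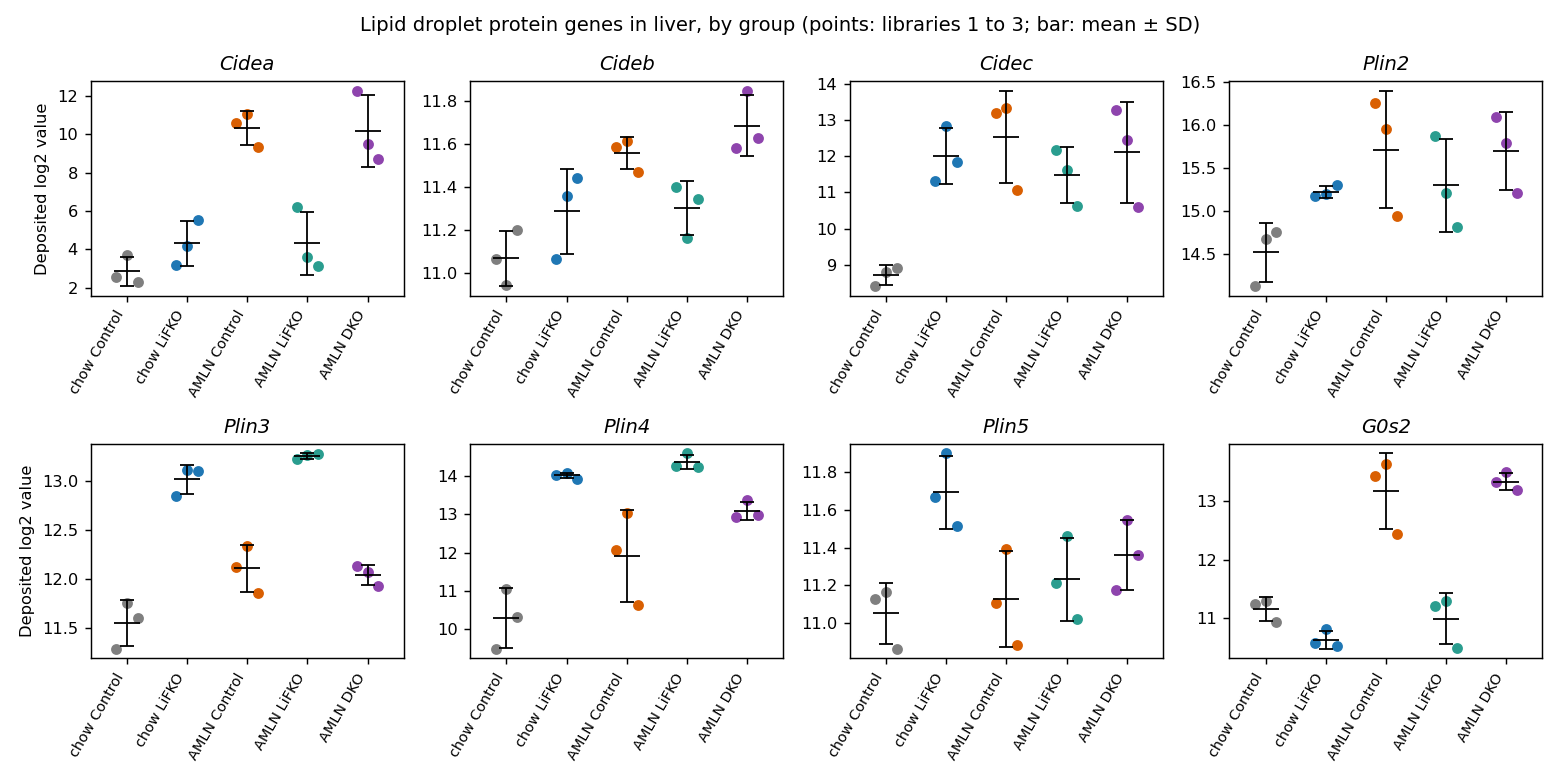
Deposited log2 value (y axis) of each of the 8 genes in the 5 groups (x axis); points are libraries 1 to 3 in that order, and the bar is the mean ± SD. Cidea and G0s2 sit high in AMLN Control and AMLN DKO and low in AMLN LiFKO, while Plin3 and Plin4 sit highest in the LiFKO groups of both diets; y axes differ between panels and do not start at 0.

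Cidea, which is known from brown fat and from steatotic liver, had the widest range. Its log2 values in chow Control were 2.55, 3.73 and 2.32, and those of replicates 1 and 3 equalled the lowest value of any gene in their library. Chow LiFKO libraries had 3.21, 4.19 and 5.56, AMLN Control 10.58, 11.05 and 9.33, AMLN LiFKO 6.20, 3.62 and 3.16, and those labelled DKO 12.26, 9.50 and 8.72. Every AMLN Control and DKO library was thus above every chow and every AMLN LiFKO library, and the chow LiFKO and AMLN LiFKO libraries overlapped. In rank, 42.2% to 71.2% of genes lay below Cidea in AMLN Control libraries, and 0.123% to 6.64% in AMLN LiFKO libraries. Its log2 difference between AMLN and chow in Control was 7.46 (SE 0.93, limma adjusted p = 0.000244), the largest of any gene in that comparison, but its size depends on the authors' offset because chow Control lay at the floor of the table. On AMLN diet Cidea was lower in LiFKO than in Control by a log2 difference of -6.00 (SE 0.93, limma adjusted p = 0.000424). It was higher in the libraries labelled DKO than in AMLN LiFKO by 5.84 (SE 0.93, limma adjusted p = 0.00102). The sizes of both differences depend on the offset too, since AMLN LiFKO lay near the lowest values. On chow the difference between LiFKO and Control was 1.46 (95% interval -0.54 to 3.45, limma adjusted p = 0.282), with both groups among the lowest values of the table.

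The Cidea gene (ENSMUSG00000024526, chromosome 18, 67503218 to 67527448) overlaps B430212C06Rik in the table's coordinates. B430212C06Rik had log2 differences of 4.00 (SE 0.57) for diet in Control, -2.12 (SE 0.57) for LiFKO against Control on AMLN, and it was called higher for DKO against LiFKO (limma adjusted p = 0.00846). The library kit does not mark strand, so reads of the overlap cannot be told apart. Adipocyte markers were checked as well, since Cidea, Cidec and Plin4 are also adipocyte genes. Of 10 markers, 4 were in the table (Cfd, Fabp4, Lpl and Lipe), while Adipoq, Plin1, Lep, Retn, Adig and Ucp1 were not among its genes. The log2 of their summed level was 11.176 to 11.306 in chow Control, 12.507 to 13.794 in chow LiFKO, 12.729 to 13.294 in AMLN Control, 12.751 to 13.316 in AMLN LiFKO and 12.544 to 13.820 in DKO libraries. Without overlap it was higher with the diet in Control and with Flcn loss on chow, where Cidec and Plin4 rose, and it overlapped between AMLN Control and AMLN LiFKO. With the diet in Control 3 of the 4 were called higher, Cfd (4.44), Fabp4 (1.47) and Lpl (2.18). With Flcn loss on chow 1 of the 4 was called, Lpl, the lipase that takes up lipoprotein fat (2.89, SE 0.40). There Cfd was at 0.58, Lipe at 0.23 and Fabp4 at -0.49. Lpl was called lower for the difference between diets (-2.54, SE 0.56, limma adjusted p = 0.0476). With Flcn loss on AMLN diet 1 of the 4 fell, Fabp4 (-1.59, SE 0.29), a fatty acid binding protein, while Cfd was at -1.22, Lpl at 0.34 and Lipe at 0.09. The part of these markers in the results was not tested.

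Cidec, the CIDE protein best known for making large droplets in fat and fatty liver, was lowest in chow Control. Its log2 values there were 8.42, 8.82 and 8.92. It reached 11.32, 12.84 and 11.83 in chow LiFKO, 13.20, 13.33 and 11.06 in AMLN Control, 12.18, 11.63 and 10.64 in AMLN LiFKO, and 13.29, 12.44 and 10.58 in DKO libraries. No library of the other 4 groups overlapped chow Control, and those 4 groups overlapped one another. Cidec rose with Flcn loss on chow by 3.28 (SE 0.67, limma adjusted p = 0.00242) and with the AMLN diet in Control by 3.81 (SE 0.67, limma adjusted p = 0.00185). These comparisons share the chow Control libraries. On AMLN diet the LiFKO minus Control difference was -1.05 (95% interval -2.48 to 0.39, limma adjusted p = 0.315), and without AMLN Control replicate 3 it was -1.78 (limma adjusted p = 0.0687).

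Cideb, the CIDE gene tied to lipoprotein loading, had small differences throughout. Its log2 values were 11.06, 10.94 and 11.20 in chow Control, 11.06, 11.36 and 11.44 in chow LiFKO, 11.58, 11.61 and 11.47 in AMLN Control, 11.40, 11.16 and 11.34 in AMLN LiFKO, and 11.58, 11.85 and 11.63 in DKO libraries. AMLN Control lay above chow Control (0.49, SE 0.11, limma adjusted p = 0.00755), and this call was lost on the housekeeping scale (0.18, limma adjusted p = 0.430). DKO libraries lay above AMLN LiFKO (0.38, SE 0.11, limma adjusted p = 0.0400), a call lost in 10 of 13 alternatives, with adjusted p from 0.0168 to 0.524 over them. AMLN LiFKO lay below AMLN Control without overlap, but the difference of -0.26 (SE 0.11) was not called (limma adjusted p = 0.128). Cideb overlaps 2610027L16Rik, whose log2 difference was -0.35 (SE 0.08) for the diet in Control and 0.07 (SE 0.08) for DKO against LiFKO, so the 2 genes did not move alike. TFE3 peaks lay 120 bases before and 631 bases after the Cideb start in LiFKO lists only, as described with the peaks. The RefSeq promoter at that start, GRCm38.p6 chr14:55758425-55758674 on the minus strand, is shown because, of the 3 CIDE genes, Cideb had the TFE3 peak nearest to its start.
Cideb promoter: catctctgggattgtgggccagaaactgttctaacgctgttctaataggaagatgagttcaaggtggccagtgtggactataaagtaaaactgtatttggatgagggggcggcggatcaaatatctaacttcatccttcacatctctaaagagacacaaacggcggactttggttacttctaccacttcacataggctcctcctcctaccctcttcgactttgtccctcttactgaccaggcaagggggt

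G0s2, the ATGL inhibitor, followed the pattern of Cidea for the diet in Control and among the AMLN groups. On chow the LiFKO minus Control difference was -0.52 for G0s2 and 1.46 for Cidea, and neither was called. Its log2 values were 11.25, 11.30 and 10.93 in chow Control and 10.58, 10.81 and 10.52 in chow LiFKO. They rose to 13.44, 13.64 and 12.44 in AMLN Control, were 11.20, 11.29 and 10.49 in AMLN LiFKO, and 13.32, 13.49 and 13.20 in DKO libraries. AMLN Control and DKO libraries did not overlap the other 3 groups. The diet effect in Control was 2.02 (SE 0.26, limma adjusted p = 0.000273). LiFKO lay below Control on AMLN diet by a difference of -2.18 (SE 0.26, limma adjusted p = 5.00e-05), and DKO libraries lay above LiFKO by 2.34 (SE 0.26, limma adjusted p = 5.03e-05). All 3 calls held in every alternative fitted. The difference between AMLN LiFKO and chow LiFKO was 0.36 (95% interval -0.19 to 0.91, limma adjusted p = 0.467). Pnpla2, which encodes the lipase that G0S2 inhibits, rose with Flcn loss by 0.71 (SE 0.13) on chow and by 0.45 (SE 0.13) on AMLN diet.

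Plin3 and Plin4 were the perilipins for which every LiFKO library of both diets lay above every Control and DKO library. Plin3 coats small, newly formed droplets and binds them from the cytosol, and Plin4 coats nascent droplets in fat and muscle. Both have a TFE3 peak near their start. Their RefSeq promoters, on the minus strand of GRCm38.p6 at chr17:56290512-56290761 (Plin3) and chr17:56109949-56110032 (Plin4), are shown for that reason. Peaks within 1 kb of the start were not particular to them. In the FPC LiFKO list Cideb, Cidec, Plin5 and G0s2 had one too, as did 45.9% of all genes. The share of all genes was 53.6% in the chow LiFKO list. The Plin4 sequence holds only the 84 bases of its 250-base window that lie before the outermost RefSeq start of the gene.
Plin3 promoter: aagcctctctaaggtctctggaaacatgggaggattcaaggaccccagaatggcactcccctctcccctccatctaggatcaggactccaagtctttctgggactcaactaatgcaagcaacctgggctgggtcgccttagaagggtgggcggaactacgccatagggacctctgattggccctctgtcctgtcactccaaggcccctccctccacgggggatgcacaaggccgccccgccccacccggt
Plin4 promoter: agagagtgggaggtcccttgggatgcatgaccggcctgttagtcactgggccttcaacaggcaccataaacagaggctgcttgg

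Plin3 had log2 values of 11.29, 11.76 and 11.60 in chow Control and 12.13, 12.34 and 11.86 in AMLN Control. LiFKO libraries had 12.85, 13.11 and 13.10 on chow and 13.23, 13.27 and 13.27 on AMLN diet, and DKO libraries had 12.13, 12.07 and 11.93. Every LiFKO library was above every Control and DKO library, and DKO overlapped AMLN Control. The LiFKO effect was 1.47 on chow (SE 0.13, limma adjusted p = 2.35e-06) and 1.15 on AMLN diet (SE 0.13, limma adjusted p = 3.26e-05). DKO libraries were lower than AMLN LiFKO by a difference of -1.21 (SE 0.13, limma adjusted p = 3.78e-05), and the DKO minus Control difference was -0.07 (95% interval -0.35 to 0.21). The diet effect in Control was 0.56 (SE 0.13, limma adjusted p = 0.00800) and was not called on the housekeeping scale (0.25, limma adjusted p = 0.336).

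Plin4 had log2 values of 9.49, 11.06 and 10.31 in chow Control and 12.06, 13.04 and 10.63 in AMLN Control. They were 14.03, 14.09 and 13.94 in chow LiFKO, 14.27, 14.60 and 14.25 in AMLN LiFKO, and 12.94, 13.37 and 12.98 in DKO libraries. LiFKO libraries were all above the others, DKO libraries were below every AMLN LiFKO library, and they overlapped AMLN Control through its replicate 2. Flcn loss raised Plin4 by 3.73 on chow (SE 0.46, limma adjusted p = 4.32e-05) and by 2.46 on AMLN diet (SE 0.46, limma adjusted p = 0.00156). The diet raised it by 1.62 in Control (SE 0.46, limma adjusted p = 0.0202), a call lost without chow Control replicate 1 (1.23, limma adjusted p = 0.0936) and without AMLN Control replicate 1 (1.55, adjusted p = 0.0660) or 2 (1.06, adjusted p = 0.0890). DKO libraries were below AMLN LiFKO without overlap, but the difference of -1.27 (SE 0.46) was not called (limma adjusted p = 0.0921). In a fit of only the groups compared it was called (limma adjusted p = 0.00182), while the diet call above was lost in such a fit (limma adjusted p = 0.0922). DKO minus AMLN Control was 1.19 (SE 0.46, limma unadjusted p = 0.0203, adjusted p = 0.270), and 0.55 without AMLN Control replicate 3. Plin4 and Hdgfrp2 share a few bases at the end of Plin4, and Hdgfrp2 was not called in any comparison.

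Plin2 and Plin5 showed other patterns. Plin2, the main droplet coat of hepatocytes, is a protein that is degraded when it is not on a droplet. Its log2 values were 14.13, 14.68 and 14.75 in chow Control, 15.18, 15.20 and 15.31 in chow LiFKO, 16.25, 15.95 and 14.95 in AMLN Control, 15.88, 15.21 and 14.82 in AMLN LiFKO, and 16.10, 15.79 and 15.21 in DKO libraries. Chow Control lay below every other group, and the other groups overlapped. The diet raised Plin2 in Control by 1.19 (SE 0.32, limma adjusted p = 0.0172), which no longer passed once chow Control replicate 1 (1.00, limma adjusted p = 0.0747) or AMLN Control replicate 1 (0.92, adjusted p = 0.0826) or 2 (1.08, adjusted p = 0.0648) was left out. On chow the LiFKO effect was 0.70 (SE 0.32) and was not called over all 15 libraries (limma adjusted p = 0.128).

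Plin5, which links droplets to mitochondria in tissues that burn fat, was raised by Flcn loss on chow and was not called in the other comparisons. Its log2 values were 11.13, 11.16 and 10.87 in chow Control, 11.67, 11.90 and 11.52 in chow LiFKO, 11.11, 11.39 and 10.88 in AMLN Control, 11.21, 11.46 and 11.02 in AMLN LiFKO, and 11.18, 11.55 and 11.36 in DKO libraries. Chow LiFKO was above chow Control and AMLN LiFKO without overlap, and above the DKO libraries with overlap. The LiFKO effect was 0.64 on chow (SE 0.15, limma adjusted p = 0.00625), not called on the housekeeping scale (0.46, limma adjusted p = 0.104), and 0.11 on AMLN diet (95% interval -0.22 to 0.43). The difference of these effects, -0.54 (SE 0.21), was not called (limma adjusted p = 0.245). The diet effect in LiFKO was -0.46 (SE 0.15, unadjusted p = 0.00879, limma adjusted p = 0.102), the 1 member at an unadjusted p under 0.05 in that comparison. Plin4 and Plin5 lie 1798 bases apart on the same strand of chromosome 17 and had different values throughout.

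**Figure D2:**
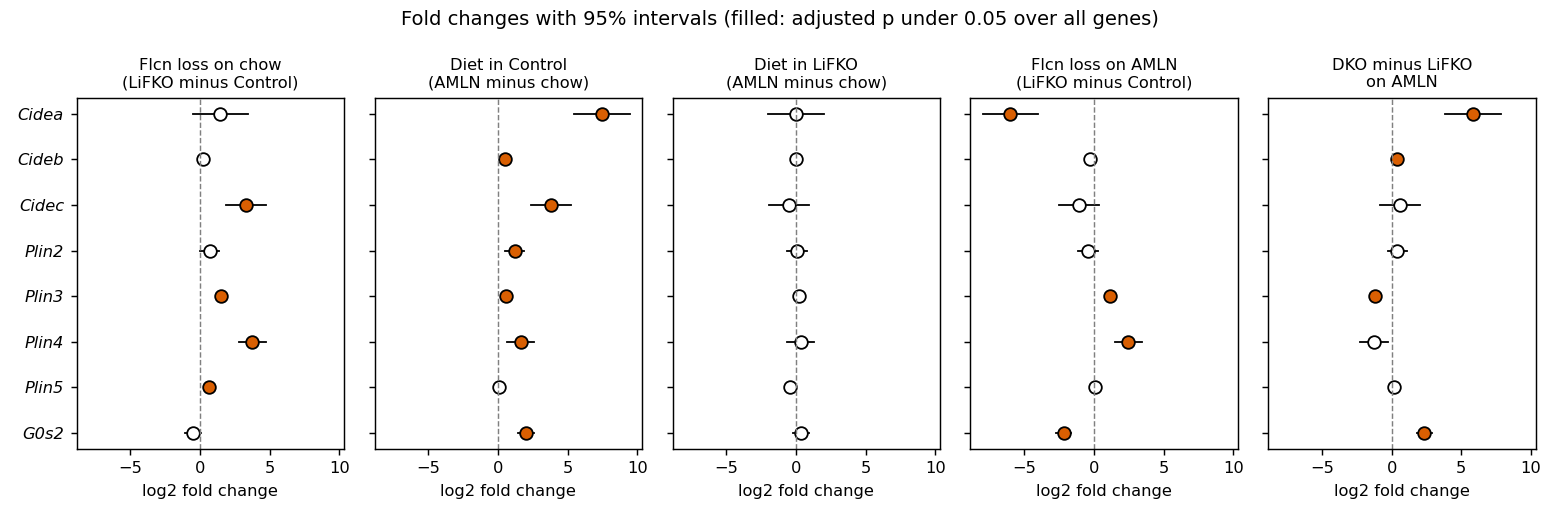
log2 fold change (x axis) with its 95% interval for the 8 genes (y axis) in 5 comparisons; filled points have a limma adjusted p under 0.05 over all genes. Diet effects lie right of 0 in Control and around 0 in LiFKO, and on AMLN diet Cidea and G0s2 lie left of 0 while Plin3 and Plin4 lie right of 0.

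Across the 8, Flcn loss on chow raised 4 genes (Cidec, Plin3, Plin4 and Plin5) and lowered none by limma, with 25.7% of all genes called, 12.5% higher and 13.2% lower. The groups did not overlap in 6 of the 8 genes, as in 41.9% of all genes, and 5 of the 8 had an unadjusted p under 0.05. In a fit of only the chow groups, Plin2 (limma adjusted p = 0.0130) and G0s2 (-0.52, limma adjusted p = 0.0180) were called too. Same-numbered chow libraries correlated at 0.113 to 0.237 in their deviations from group means, a pairing picked from these same data. With the replicate number as a block in the fit of only the chow groups, the adjusted p was 0.00442 for Plin2 and 0.00613 for G0s2 by limma. Because the block was picked this way, these smaller values add no support. With the block over all 15 libraries G0s2 was called (limma adjusted p = 0.0356) and Plin2 was not (0.101). On AMLN diet Flcn loss raised Plin3 and Plin4 and lowered Cidea and G0s2, with 19.7% of all genes called, 10.1% higher and 9.63% lower. The groups did not overlap in 5 of the 8, as in 35.4% of all genes. The median log2 fold change was -1.05 over the 3 CIDE genes, 0.63 over the 4 perilipins and -0.02 over all genes. DKO libraries had 3 genes above AMLN LiFKO (Cidea, Cideb and G0s2) and 1 below (Plin3), with 11.0% of all genes called, 5.05% higher and 5.97% lower. The groups did not overlap in 5 of the 8, as in 28.7% of all genes. This comparison and that of LiFKO with Control share the AMLN LiFKO libraries. Between DKO and AMLN Control libraries limma called none of the 8 (1 at an unadjusted p under 0.05, which was Plin4), with 0.651% of all genes called. No gene of the 8 had groups without overlap, against 16.7% of all genes. The 95% interval of that difference was widest for Cidea (-2.15 to 1.83) and Cidec (-1.86 to 1.01), so differences of that size remain possible for these genes. For G0s2 it ran from -0.39 to 0.72.

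The effect of Flcn loss on AMLN diet minus that on chow tests whether the effects differ. It was called lower for Cidea (-7.45, SE 1.32, limma adjusted p = 0.0203), Cidec (-4.32, SE 0.95, limma adjusted p = 0.0474) and G0s2 (-1.66, SE 0.37, limma adjusted p = 0.0480), with 0.760% of all genes called lower and 0.282% higher. No perilipin was called, although all 4 values were below 0: -1.12 (SE 0.46) for Plin2, -0.32 (SE 0.18) for Plin3, -1.27 (SE 0.64) for Plin4 and -0.54 for Plin5. The Cidea call was lost without AMLN Control replicate 1 (-7.32, limma adjusted p = 0.0578) or 2 (-7.09, limma adjusted p = 0.0533). The Cidec and G0s2 calls were lost without a variance trend (limma adjusted p = 0.0886 for each), and that of G0s2 also on the housekeeping scale (-1.26, limma adjusted p = 0.0650) and in a fit of only the 4 groups compared (0.0596). Both were also lost on leaving out any 1 of the 12 libraries except AMLN Control replicate 3; they ranged from -5.06 to -3.90 and from -2.02 to -1.40.

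Over the 15 libraries the genes varied in sets. Pearson's r was 0.909 for Cidea and G0s2 (Spearman's rho 0.761), 0.905 for Plin3 and Plin4 (rho 0.943) and 0.897 for Cidec and Plin2 (rho 0.882). It was -0.437 for Plin3 and G0s2. These are descriptions without a test, since the libraries fall into 5 groups and share their groups' differences. For deviations from the group means, r was 0.855 for Cidec and Plin2, 0.844 for Plin3 and Plin4, 0.810 for Plin5 and G0s2 and 0.424 for Cidea and G0s2. For Plin3 and G0s2 it was 0.490, of opposite sign to that over groups. AMLN Control replicate 3, low in all 8 genes, is among the points behind these values.

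**Figure D3:**
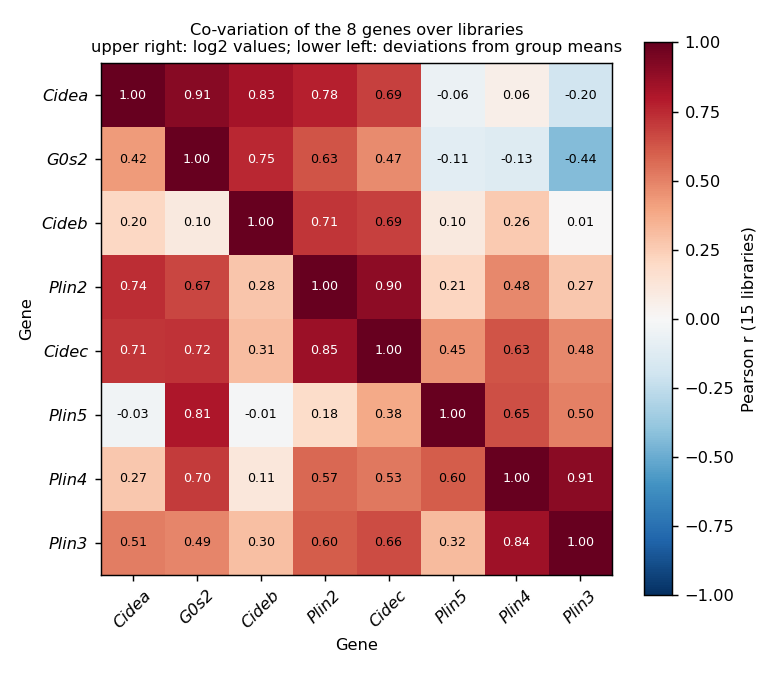
Pearson's r between the 8 genes (both axes) over 15 libraries; cells above the diagonal use the log2 values, those below it the deviations from group means, and colour runs from -1 (blue) to 1 (red). Cidea with G0s2 (0.909) and Plin3 with Plin4 (0.905) are the highest above the diagonal, and Cidec with Plin2 (0.855) below it.

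The genes most like each member were sought among about 5292 genes whose range over libraries was at least 1 on the log2 scale. Plin3 was most like Ctsb, a lysosomal protease (r = 0.980), Siae (0.976) and Galk2 (0.975). G0s2 was most like Rnd2 (0.971), Gpc1 (0.960) and A4gnt (0.944), and Plin4 was most like Morc4 (0.969), Ephb2 (0.968) and Eda (0.964). Cidec was most like Fkbp1a (0.950), Gpnmb (0.931) and Osbpl3 (0.919), and Cidea was most like Elovl5, a fatty acid elongase (0.945), Rad51l1 (0.932) and Mogat1, an enzyme of triglyceride synthesis (0.921). Plin2 had Zfp423 (0.935), Enc1 (0.934) and Tmem120a (0.933), and Cideb had Scd4 (0.922), Tkt (0.921) and Rad51l1 (0.911). Plin5 had the lowest likeness to any gene, with Samd14 (0.844) and Adamts14 (0.825). These are values of r over 15 libraries of 5 groups, with no test.

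Other genes of droplet formation, triglyceride synthesis and lipolysis were followed in a list of 26, of which 21 were in the table. With the AMLN diet in Control 8 of the 21 rose and 2 fell (median 0.30, all genes -0.04). Pnpla3, a droplet lipase homologue, rose by 4.21 (SE 0.70), Mogat1 by 3.34 (SE 0.61), Agpat2, an acyltransferase, by 1.13 (SE 0.17) and Mgll, the monoglyceride lipase, by 1.02 (SE 0.20). On AMLN diet Flcn loss raised 4 and lowered 7 (median -0.04, all genes -0.02). Mogat1 (-3.52, SE 0.61), Fitm1, a droplet budding factor (-2.30, SE 0.37), and Acsl3, which activates fatty acids for droplets (-1.29, SE 0.21), fell, and Dgat2, the last enzyme of triglyceride synthesis, rose (0.88, SE 0.12). In DKO against LiFKO libraries 5 were higher and 1 lower (median 0.17, all genes 0.02), with Mogat1 at 3.02 (SE 0.61), Fitm1 at 1.66 (SE 0.37), Acsl3 at 0.97 (SE 0.21) and Dgat2 at -0.62 (SE 0.12). On chow Flcn loss raised 4, among them Pnpla2, Hsd17b11 (0.51, SE 0.10) and Lpin2 (0.60, SE 0.12), and lowered 3, among them Aup1 (-0.32, SE 0.08). The diet in LiFKO lowered 2, Lpin2 (-0.56, SE 0.12) and Pnpla2 (-0.59, SE 0.13), and DKO against AMLN Control raised 1, Hsd17b11 (0.53, SE 0.10). No gene of the list was called for the difference between diets, and its smallest adjusted p was 0.0909 (Agpat2, -0.86, SE 0.23).

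All 15 genes of a list of transcriptional regulators were measured. Pparg, the nuclear receptor that drives fat storage genes, rose with the AMLN diet in Control (1.36, SE 0.23), fell with Flcn loss on that diet (-0.83, SE 0.23) and was higher in DKO than in LiFKO libraries (1.04, SE 0.23). Srebf1, which encodes SREBP-1, did likewise (1.87, -1.35 and 1.19, SE 0.18 each). Ppargc1a, a coactivator of oxidative genes, rose with Flcn loss on chow (2.23, SE 0.23) and on AMLN diet (2.18, SE 0.23) and was lower in DKO than in LiFKO libraries (-0.97, SE 0.23). Ppara, the nuclear receptor of fatty acid oxidation, rose with Flcn loss by 0.48 on chow and 0.49 on AMLN diet (SE 0.12 each). Over the list, 2 rose and 3 fell with Flcn loss on chow (median -0.08), 2 rose and 2 fell on AMLN diet (median -0.04), 2 rose and 2 fell with diet in Control (median -0.15), and 3 were higher and 1 lower in DKO than in LiFKO libraries (median 0.03). The medians of all genes in these comparisons were -0.05, -0.02, -0.04 and 0.02. The remaining comparisons called 2 higher and 1 lower for the diet in LiFKO, 1 higher for DKO against AMLN Control and, by limma, none for the difference between diets.

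Macrophages and stellate cells also express Plin2. Macrophage markers (9 of 10 in the table) had a log2 summed level of 13.749 to 14.766 in chow Control, 13.965 to 14.263 in chow LiFKO, 14.316 to 14.498 in AMLN Control, 14.437 to 15.138 in AMLN LiFKO and 13.871 to 14.645 in DKO libraries. Cd68, a lysosomal protein of macrophages, rose with Flcn loss on chow (2.22, SE 0.27) and on AMLN diet (0.98, SE 0.27) and was lower in DKO than in LiFKO libraries (-1.48, SE 0.27). It was the 1 marker of 9 called on chow, where the median of the list was -0.26 and Trem2 (-0.97), Lyz2 (-0.50), Marco (-0.40), Csf1r (-0.37) and Clec4f (-0.26) had values below 0. On AMLN diet Flcn loss raised 2 of the 9, Cd68 and Vsig4 (0.59, SE 0.19), and lowered none. The median there was 0.39, and Trem2 (-1.62) and Itgax (-0.77) had values below 0. In DKO against LiFKO libraries 2 of the 9 were lower, Cd68 and Vsig4 (-0.76, SE 0.19), and none higher. The median there was -0.54, and Trem2 was at 0.73. Stellate cell markers (6 of 6) had 12.867 to 13.373 in chow Control, 12.978 to 13.358 in chow LiFKO, 13.632 to 14.166 in AMLN Control, 13.578 to 13.683 in AMLN LiFKO and 13.486 to 14.278 in DKO libraries. With the diet in Control 3 of the 9 macrophage markers were called higher, Itgax (2.92), Trem2 (2.47) and Cd68 (1.06), and none lower. The median of that list was 0.25. Of the 6 stellate cell markers 3 were called higher there, Col1a1 (2.31), Col3a1 (2.01) and Lrat (0.60), and none lower (median 0.48). With Flcn loss on AMLN diet 1 of the 6 was called, Col1a1, which was lower (-1.53, SE 0.44). The part of these markers in the values of the 8 genes was not tested.

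TFE3 peaks were assigned to a gene where the peak centre lay between 10 kb before its start and its end. Before the counts, 3 of the 4 FPC TFE3 lists (all but LiFKO+1c) have headers that name an input library among the ChIP libraries and a TFE3 library as the input, and the HA list of LiFKO+1c names a TFE3 library among its HA libraries. The chow lists have no such entry. TFE3 peaks were found at 6 of the 8 genes in the chow Control list and at 7 in chow LiFKO, where 46.9% and 75.8% of 9670 genes with a known strand had one. On FPC diet they were found at 3 genes in Control (40.0% of all genes), 8 in LiFKO (72.5%), 3 in Control+1c (41.7%) and 6 in LiFKO+1c (82.2%). These counts, over 8 genes, were not tested against the background of each list, which for LiFKO lists was high throughout. They are not read as a trait of the 8 genes. LiFKO lists were also longer, with 26445, 27751 and 35325 peaks against 11385, 9647 and 10827 in the matching Control lists. Strand was not known for Cidea, for which 10 kb on either side was searched.

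The peaks at the 8 genes formed 22 distinct sites when peaks sharing at least 1 base were joined. Of these, 10 were in Control and LiFKO lists, 12 in LiFKO lists only and none in Control lists only. The LiFKO lists were the longer ones, and this split was not counted over all sites, so it cannot be read as a trait of the 8 genes. The number of a list's libraries and peaks differs, and pooled lists allow no test between groups. Scores are the authors' peak scores and were ranked within a list only.

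Plin3 had the highest-ranked peak of the 8 genes in every TFE3 list but that of chow Control, where the site shared by Plin4 and Plin5 ranked higher. A site at chr17:56428751-56429044, 1037 bases inside the gene, was the only one in all 6 TFE3 lists, with scores of 16.5 (rank 4896 of 11385) in chow Control and 44.7 (rank 1693 of 26445) in chow LiFKO. On FPC diet its scores were 13.7 in Control (rank 2281 of 9647), 27.5 in LiFKO (rank 2988 of 27751), 12.4 in Control+1c (rank 2101 of 10827) and 32.5 in LiFKO+1c (rank 3822 of 35325). A second Plin3 site, at chr17:56429498-56429873, was in 4 lists, and another, at chr17:56429878-56430060 and centred 35 bases before the start, was in the 4 FPC lists. Plin3 was thus in every TFE3 list, also in the Control lists.

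Plin4 had a site at chr17:56249213-56249494, centred 128 bases before its start, in the 3 LiFKO lists only, with scores of 20.3 (rank 11554 of 26445) on chow, 12.9 (rank 12195 of 27751) on FPC and 20.3 (rank 9956 of 35325) with 1c. A site 833 bases inside the gene was in both chow lists. The site at chr17:56256732-56257074 counts for both Plin4 and Plin5, since it lies 116 bases inside Plin5 and 7678 bases before the start of Plin4. It was in 5 lists, Control lists included, with scores of 21.7 in chow Control (rank 2771 of 11385) and 29.7 in chow LiFKO (rank 5481 of 26445). Plin5 had a further site 7441 bases before its start in 3 lists, and this site lies inside the neighbouring gene Sema6b.

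Plin2 had 2 sites, 1079 and 1927 bases before its start, each in 4 lists. The nearer was in the chow Control list (score 13.8) and in the 3 LiFKO lists (13.3 to 21.9), and the farther in the FPC Control+1c list (9.16) and in the 3 LiFKO lists (12.2 to 23.2). Cidec had 6 sites from 6854 bases before its start to 8200 bases inside the gene. The innermost, at chr6:113377444-113377664, was in the chow Control, FPC Control+1c, FPC LiFKO and LiFKO+1c lists, and the other 5 were in LiFKO lists only. The Cidec site farthest upstream overlaps the start of Jagn1.

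At Cideb, G0s2 and Cidea, peaks scored below their list's median, except for the higher-scoring Cideb peak in chow LiFKO. Cideb had a site at chr14:56376562-56376767 in all 3 LiFKO lists, with scores of 14.7 on chow (rank 16875 of 26445), 7.72 on FPC (rank 20890 of 27751) and 9.30 with 1c (rank 25361 of 35325). A second, at chr14:56377319-56377512, was in the chow LiFKO (24.9, rank 8047 of 26445) and LiFKO+1c (9.87) lists. G0s2 had a site at chr1:195104682-195104926, 5422 bases before its start, in chow Control (7.83), chow LiFKO (14.5) and FPC LiFKO (7.08), and one 132 bases inside the gene in FPC LiFKO (7.08). Cidea had a single peak, in FPC LiFKO, with a score of 4.72 and rank 26391 of 27751. Cidea and G0s2, the genes that fell most with Flcn loss on AMLN diet, thus had peaks that all scored below their list's median. ChIP livers were not on the AMLN diet, so peaks and RNA come from different diets or, on chow, from livers fed ad lib against fasted.

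**Figure D4:**
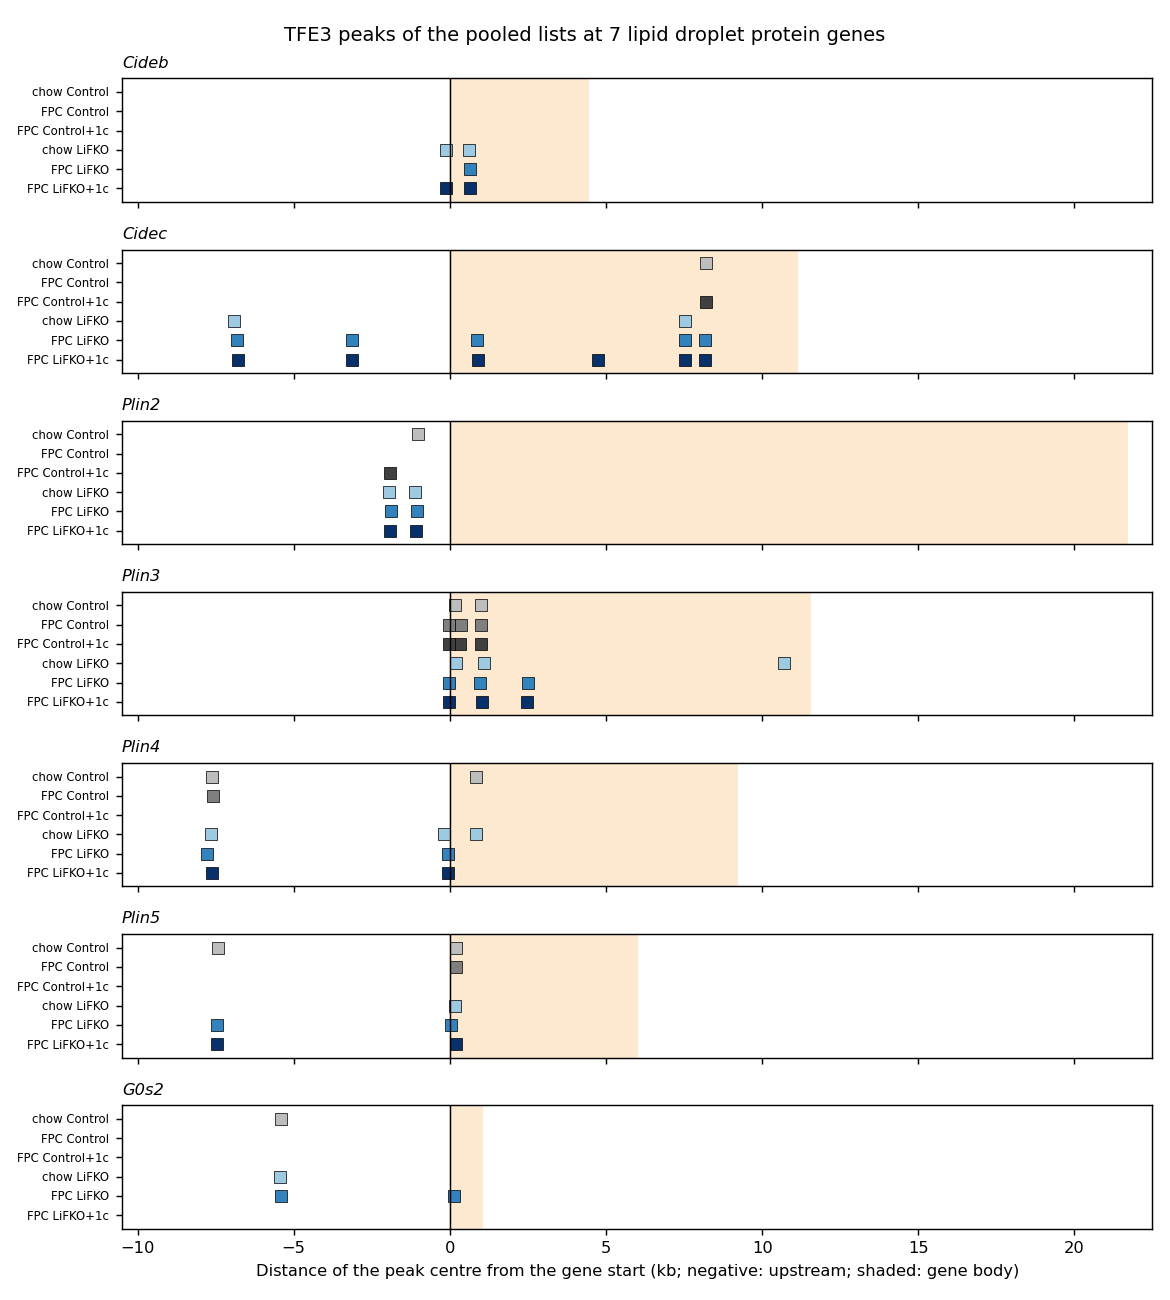
Positions of TFE3 peak centres (x axis, kb from the gene start, negative upstream) at 7 genes, with 1 row per pooled list (grey for Control, blue for LiFKO); the shaded span is the gene. Peaks at Cideb appear in LiFKO rows only, whereas Plin3 has peaks in all 6 rows; Cidea is left out because its strand was not known.

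HA peaks, which mark HA-nSREBP-1c, were found at none of the 8 genes in either list, where 8.70% (Control+1c) and 6.64% (LiFKO+1c) of all genes had one. Within 50 kb of the start, Cidec and Plin2 had an HA peak in both lists, against 16.3% and 13.4% of all genes. The authors' deposited table of differential peaks lists 96 peaks, none of them at one of the 8 genes.

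RefSeq promoters of GRCm38.p6 were given for 7 of the 8 genes. The 250 bases before each listed start were searched on both strands for CACGTG (the E-box bound by TFE3 and its relatives), its longer form TCACGTGA, which contains it, TCACNCCAC (sterol regulatory element) and a pair of AGGTCA repeats with 1 base between them (PPAR response element). None of these occurred in any of the 9 promoters of the 7 genes, which is why the sequences above carry no capitals. For 2 of the 9, second starts of Cidec and Plin5, the window lies wholly inside the gene. Over 32851 promoters of the same length, 6.02% held CACGTG, 0.785% TCACGTGA, 1.05% TCACNCCAC and 0.0335% the AGGTCA pair. The absence of these letters says nothing of other sites of the same factors, and the peaks above are in mm9 and span more than these windows.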

How the data were processed

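For RNA-seq, the authors deposited a table of log2 values for 13815 genes. The tools named in the submitters' processing notes are bcl2fastq 2.17, Trimmomatic 0.32, STAR 2.6.0c (mm9), SAMtools, featureCounts and limma. The maximum over 15 libraries was the same in every library and the median was 9.791 to 9.799, as after quantile normalization. Peak lists deposited by the authors give HOMER scores of pooled libraries, per the file headers; processing notes name Bowtie2 2.2.8 and HOMER 4.11 for chow and Bowtie2 2.2.6 and HOMER 4.4 for FPC diet. The authors' differential peak table, deposited with log2 fold changes and an adjusted p-value, was searched for the members only. Here limma 3.58.1 in R 4.3.3 fitted group means over all libraries (10 residual degrees of freedom), with eBayes trend=TRUE, Benjamini-Hochberg adjustment over all genes in each of 7 comparisons and two-sided tests. No filter was applied, so all 8 genes were tested. The fit was tested on simulated data. The members, gene lists and named genes (all members; up to 4 genes of a list with the smallest p; the 3 genes most like each member; neighbours within 10 kb) were chosen with earlier results of these data known. One gene that this rule names is not reported here. Same-numbered libraries of chow Control and chow LiFKO correlated in their deviations from group means at 0.113 to 0.237, and were taken as pairs from the data alone; no other pair of groups had every correlation over 0.1. Alternatives changed the variance trend, a filter on low values, the scale, the libraries fitted, their weights, the replicate block, the threshold and the peak window. Gene starts came from the expression table, and strands from RefSeq by gene ID. Python 3.11.15, pandas 2.3.3 and matplotlib 3.10.9 were used.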

Additional observations from a re-analysis of the deposited data

Results flagged for a closer look

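The effect of Flcn loss differed between diets in 3 of the 8 genes, by limma's test of the difference itself. The effect on AMLN diet minus that on chow was -7.45 for Cidea (1.46 on chow, -6.00 on AMLN diet), -4.32 for Cidec (3.28 and -1.05) and -1.66 for G0s2 (-0.52 and -2.18), all on the log2 scale. The adjusted p-values from limma were 0.0203, 0.0474 and 0.0480. The call was lost in 2 alternatives for Cidea, 12 for Cidec and 14 for G0s2, and without a variance trend 1 of the 3 was called. Of the 6 single effects, Cidec on chow and Cidea and G0s2 on AMLN diet were called on their own. Cidea lay at or near the lowest values of the table in both chow groups, so the size of its chow effect is set by low values.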

How the results depend on the processing

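The 22 called results of the 8 genes were refitted 300 times in all. Of these fits 248 kept the call, 52 lost it and none changed sign. The 34 results not called were refitted 469 times, with 13 gaining a call and 26 changing sign, none of those called. On the housekeeping scale the signs that changed were of Plin5 for the diet in Control (-0.23) and for DKO against LiFKO (-0.0195), of Plin2 (0.0542) and Plin3 (0.0028) for DKO against AMLN Control, and of Plin3 for the difference between diets (0.0751); with library weights G0s2 for DKO against AMLN Control became -0.0337. On leaving out a library, the values that changed sign ran from -0.0568 to 0.197 (Plin5, diet in Control), -0.93 to 0.62 (Cidea), -0.0982 to 0.0902 (Cideb) and -0.22 to 0.31 (Plin2) for the diet in LiFKO, and -0.0154 to 0.238 for Plin5 with Flcn loss on AMLN diet. For DKO against AMLN Control they ran from -1.21 to 0.56 (Cidea), -1.16 to 0.33 (Cidec), -0.40 to 0.25 (Plin2), -0.193 to 0.0471 (Plin3) and -0.20 to 0.40 (G0s2).

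With the replicate block over all libraries, 1 member was lower on chow (G0s2), 1 was lower in AMLN LiFKO than in chow LiFKO (Plin5) and 2 were lower in DKO than in LiFKO (Plin3 and Plin4). With the replicate block in a fit of only the groups compared, 1 was lower on chow, 3 were higher with the diet in Control and 2 were lower in DKO than in LiFKO. Without the block, a fit of only the groups compared gave 1 and 2 lower members in the first and last of these. No other count of called members moved with the block by over 1.5 times. With the replicate block in only the groups compared, Cidec was called lower with Flcn loss on AMLN diet (limma adjusted p = 0.0280) and Plin5 for the difference between diets (0.0462), and the Plin4 diet call was lost (0.0601). The labels give libraries of different groups no more than a shared number, and the chow pairing came from the data alone. Leaving out the lower quartile of genes removed Cidea, which left 1 lower member on AMLN diet. For the difference between diets 1 member was lower with trend=FALSE and 0 at an adjusted p under 0.01, and 0 to 4 on leaving out a library: 0 without AMLN Control replicate 1 or 2, and 4 without AMLN Control replicate 3. All genes called ranged over the alternatives from 2018 to 4149 (main 3545) for Flcn loss on chow, 1218 to 4860 (3154) for the diet in Control, 1521 to 3216 (2722) for Flcn loss on AMLN diet, 61 to 661 (517) for the diet in LiFKO, 695 to 1888 (1523) for DKO against LiFKO, 15 to 365 (90) for DKO against AMLN Control and 9 to 533 (144) for the difference between diets. The cause of these shifts was not tested.

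Windows around the start were searched for the 7 members with a known strand, and shares of all genes are in brackets. TFE3 peaks within 1 kb were at 3 genes in chow Control (27.4%) and 4 in chow LiFKO (53.6%). On FPC diet they were at 2 in Control (18.4%), 6 in LiFKO (45.9%), 1 in Control+1c (18.3%) and 5 in LiFKO+1c (58.5%). Within 50 kb they were at 5 in FPC Control (61.4%) and at all 7 in the other TFE3 lists (64.5% to 92.6%). HA peaks within 50 kb were at 2 in each HA list (16.3% and 13.4%). TFE3 peaks scoring at or above the list's median were at 3 of the 8 genes in chow Control (32.6%) and 6 in chow LiFKO (57.9%). On FPC diet they were at 1 in Control (27.9%), 5 in LiFKO (56.8%), 2 in Control+1c (29.5%) and 5 in LiFKO+1c (68.3%). Requiring an overlap of 50% of the shorter peak split the 23 pairs of gene and site into 28. With 3 libraries a group and no counts, depth could not be weighed.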
